A study of Homo sapiens with 7 samples.

Results

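ALOX5, ALOX5AP and LTA4H encode the proteins that make leukotriene B4, and the peaks of the vitamin D receptor (VDR) listed around them were followed here in THP-1 cells with and without the hormone. A peak was taken as a member when it overlapped the body of 1 of the 3 genes extended by 100 kb on each side, in hg19. This gave 27 peaks out of 35564 in the part of the genome that all 6 peak lists cover, which is limited to 8 chromosomes (1, 10 to 15 and part of 16). Overlapping peaks (by 1 bp or more) were joined, which left 20 sites out of 28993.

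THP-1 is a human cell line from an acute monocytic leukaemia. Its cells had been exposed for 8 h to 100 nM of 1α,25-dihydroxyvitamin D3 (1,25D, the hormone that VDR binds) or to 0.1% ethanol (EtOH), the solvent, with 3 ChIPmentation libraries of each. In ChIPmentation, immunoprecipitated chromatin is tagged with sequencing adapters by the transposase Tn5. All libraries used the same VDR antibody, and 1 input library was not analysed here. Nothing in the labels says that the replicates were separate cultures, so p-values measure the spread between libraries, which may be technical. The lists hold no expression values, so the identity of the cells could not be set against marker genes.

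Leukotrienes are lipid mediators that myeloid cells release within minutes of activation. Cytosolic phospholipase frees arachidonic acid from membranes, ALOX5AP (also called FLAP) hands it to 5-lipoxygenase, and 5-lipoxygenase, the product of ALOX5, turns it into leukotriene A4. LTA4H, a hydrolase that also acts as an aminopeptidase, turns leukotriene A4 into leukotriene B4, a strong attractant for neutrophils. ALOX5 is known as a gene that vitamin D raises, together with TGF-beta, in differentiating myeloid cells. VDR pairs with the retinoid X receptor on DNA, classically at 2 hexamer half-sites repeated in the same direction with 3 bases between them, an arrangement called DR3.

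Each of the 3 windows held exactly 1 site that was listed in every 1,25D library and in no EtOH library, called a hormone-only site from here on. The site of LTA4H was the strongest, that of ALOX5AP was intermediate and that of ALOX5 was the weakest, in each of the 3 1,25D lists. No site in any window was listed in both treatments, and none was listed in more than 1 EtOH library. Hormone-only sites were 3 of the 20 sites in the windows (15.0%), against 1.7% of all 28993 sites. The windows held 0 sites repeated in every EtOH list alone, against 0.0379% of all sites. They also held 0 sites of all 6 lists, against 1.03%, and 0 sites with a peak in each treatment, against 5.27%. A hormone-only site was present in all 3 windows, against 411 of 4107 stretches of 250 kb (10%) laid end to end over the covered part. Of the 3484 stretches that held any site, these 411 were 11.8%. The genes were chosen with earlier results of these data known, so these shares are given as background only. Presence in 3 lists against 3 cannot give a p below 0.1, so single sites were not tested.

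**Figure D1:**
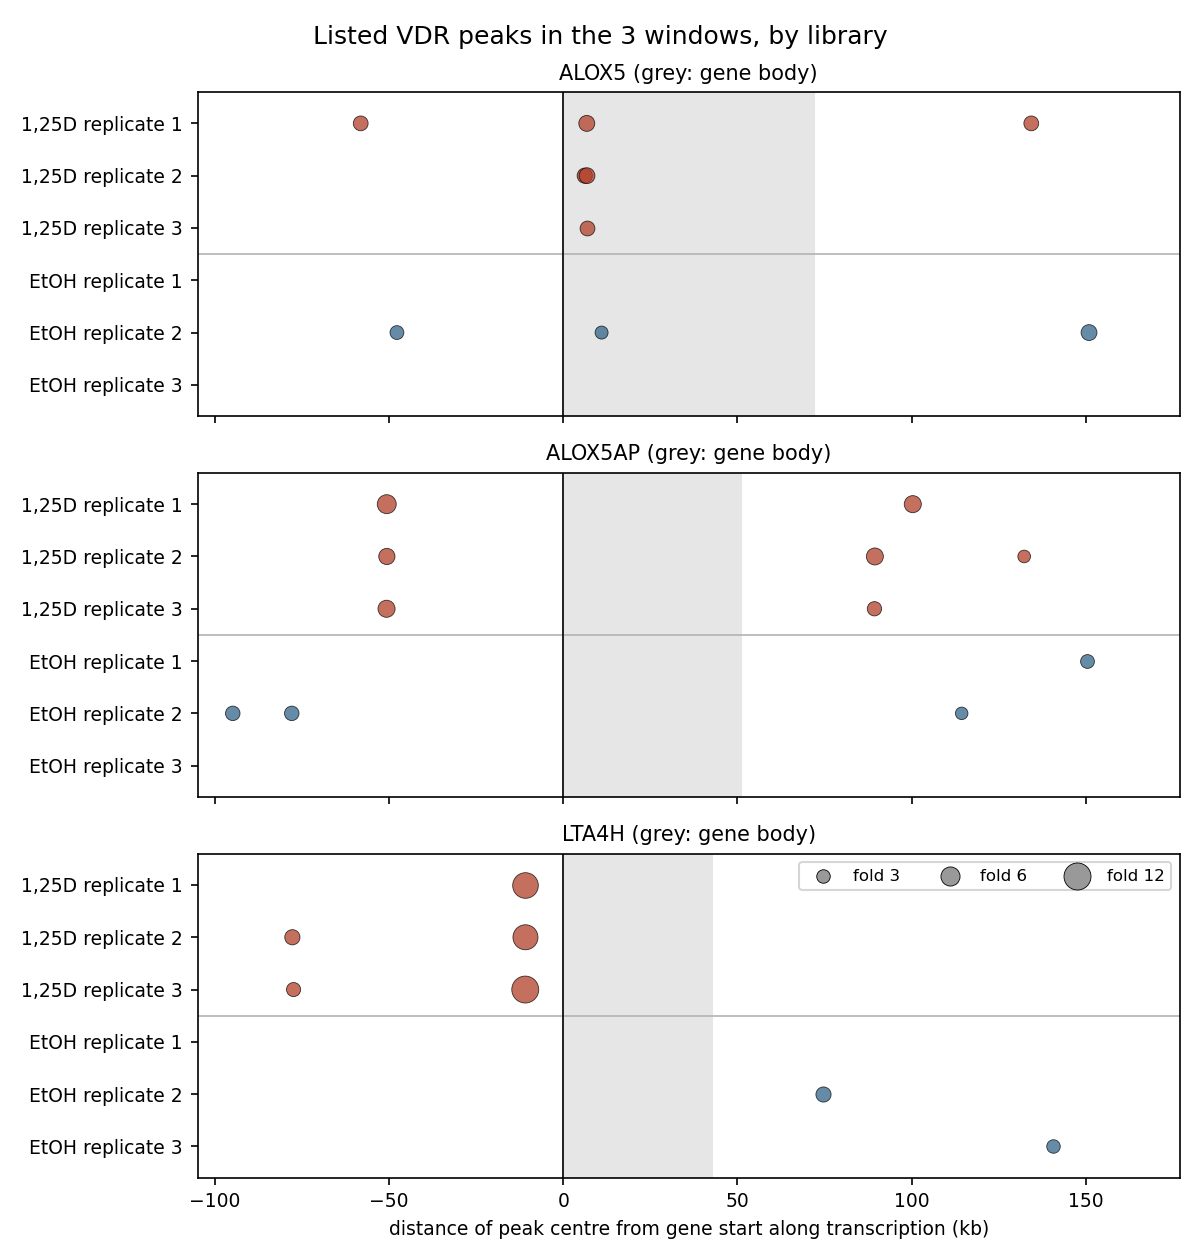
Peaks listed in each library around the 3 genes: the x axis gives the distance of the peak centre from the gene start in kb, along the direction of transcription, and the point area the authors' fold enrichment. The 3 1,25D libraries, above, line up at 1 position per gene, whereas the EtOH peaks, below, share no position with any other list.

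ALOX5AP encodes the membrane protein that presents arachidonic acid to 5-lipoxygenase. The gene lies on chromosome 13 at 31287615 to 31338556 (hg19, forward strand). Its hormone-only site was upstream, at 31236786 to 31237075, and its peak centres lay on average 50.7 kb before the gene start. The authors' fold enrichment there was 5.92, 4.34 and 4.81 in 1,25D replicates 1 to 3, with peak p-values of 3.59e-09, 1.35e-05 and 1.31e-06. No EtOH list had a peak at this place. The 3 peaks shared a core of 103 bp, and their centres lay within 93 bp of each other. Among the 492 hormone-only sites of the covered part, its mean fold of 5.02 ± 0.811 (SD, n = 3) ranked 218, close to the median of 4.86.

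A site downstream of ALOX5AP was called in 2 of the 3 1,25D lists and in no EtOH list. It spanned 31376867 to 31377290, between 89.3 and 89.7 kb beyond the gene start, with folds of 4.75 in 1,25D replicate 2 and 3.37 in replicate 3. Replicate 1 had no peak there but had a peak of fold 4.81 at 31387873 to 31388053, which was 10.6 kb further on. The body of ALOX5AP itself held no peak in any of the 6 lists. The peak nearest to its start was the upstream site, 50.5 kb away. In the order of the RefSeq gene table, which is of another build (GRCh38), USPL1 is the next protein-coding gene upstream and MEDAG the next downstream. Which of these genes lies nearest to the sites was not determined here.

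ALOX5 encodes 5-lipoxygenase, the first committed enzyme of the pathway. It lies on chromosome 10 at 45869661 to 45941561 (hg19, forward strand) and was the only gene of the 3 with a peak in its body. The hormone-only site, at 45876336 to 45876563, began 6.68 kb after the gene start. Whether it falls in an exon or an intron was not determined here. In the GRCh38 table OR13A1 is the next protein-coding gene upstream of ALOX5 and MARCHF8 the next downstream. Its fold was 4.19, 4.11 and 3.61 in 1,25D replicates 1 to 3, with peak p-values of 5.25e-06, 2.95e-05 and 8.02e-05. No EtOH list had a peak at this site, although EtOH replicate 2 had one of fold 2.77 at 45880586 to 45880734, which lay 4.02 kb further into the gene.

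The ALOX5 site was weak by the measure of its class. Its mean fold of 3.97 ± 0.315 (SD, n = 3) ranked 400 of the 492 hormone-only sites, of which 18.9% were weaker. Within their own lists the 3 peaks had a fold above that of 61.7%, 65.3% and 58.4% of all peaks. Their positions were close nonetheless, with a core of 96 bp common to the 3 lists and centres within 65.5 bp. 1,25D replicate 2 listed a second peak in the gene body, at 45875667 to 45875971, with a fold of 3.80 and a gap of 365 bp to the hormone-only site. The strongest EtOH peak of the 3 windows was also in the ALOX5 window: EtOH replicate 2 had a fold of 4.15 at 46020476 to 46020748, beyond the end of the gene. That value lies within the range of the 3 1,25D folds at the hormone-only site. The fold and p-value of this EtOH peak occurred together 869 times in its own, longer list (7.68% of its peaks). The value pairs of the hormone-only site occurred 49, 4 and 5 times in the lists of 1,25D replicates 1 to 3 (0.942%, 0.110% and 0.113%).

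**Figure D2:**
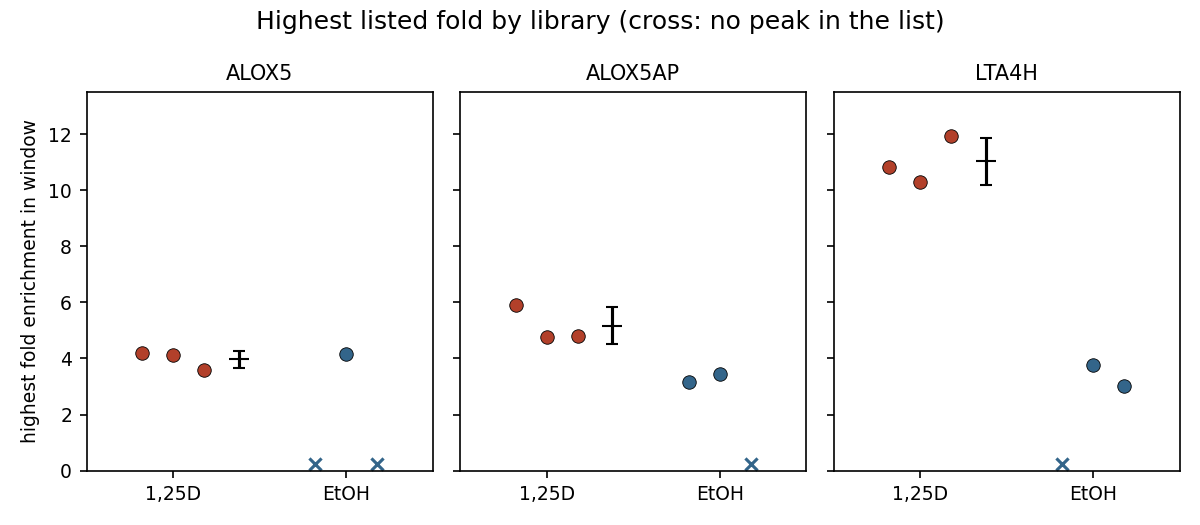
Highest fold enrichment listed in each window (y axis) by library, with 1,25D libraries left and EtOH libraries right of each panel; crosses mark lists with no peak in that window, and bars give the mean and SD of the 3 1,25D libraries. All 3 1,25D libraries exceed both listed EtOH values around LTA4H and around ALOX5AP, whereas at ALOX5 the 1 EtOH value of 4.15 lies among the 1,25D values.

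LTA4H encodes the hydrolase that completes leukotriene B4. The gene lies on chromosome 12 at 96394611 to 96437298 (hg19, reverse strand), so its upstream side has the higher coordinates. The hormone-only site, at 96447905 to 96448411, lay between 10.6 and 11.1 kb upstream of the outer end of the gene. Its fold was 10.8, 10.3 and 11.9 in 1,25D replicates 1 to 3, with peak p-values of 5.22e-20, 5.27e-18 and 1.48e-23. No EtOH list had a peak there, and the nearest peak of any EtOH list was 85.2 kb away, with a fold of 3.78.

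The LTA4H site was among the strongest of its kind. Its mean fold of 11.0 ± 0.843 (SD, n = 3) ranked 6 of 492. Its peaks ranked 172 of 5203 in 1,25D replicate 1, 210 of 3647 in replicate 2 and 173 of 4424 in replicate 3, counting from the highest fold in the covered part. They were 410, 506 and 375 bp long and had 375 bp in common, whereas the peaks of the other 2 hormone-only sites were 147 to 226 bp long. The 9 folds of the 3 hormone-only sites did not overlap between genes: those of LTA4H were at least 10.3, those of ALOX5AP lay between 4.34 and 5.92, and those of ALOX5 were at most 4.19.

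**Figure D3:**
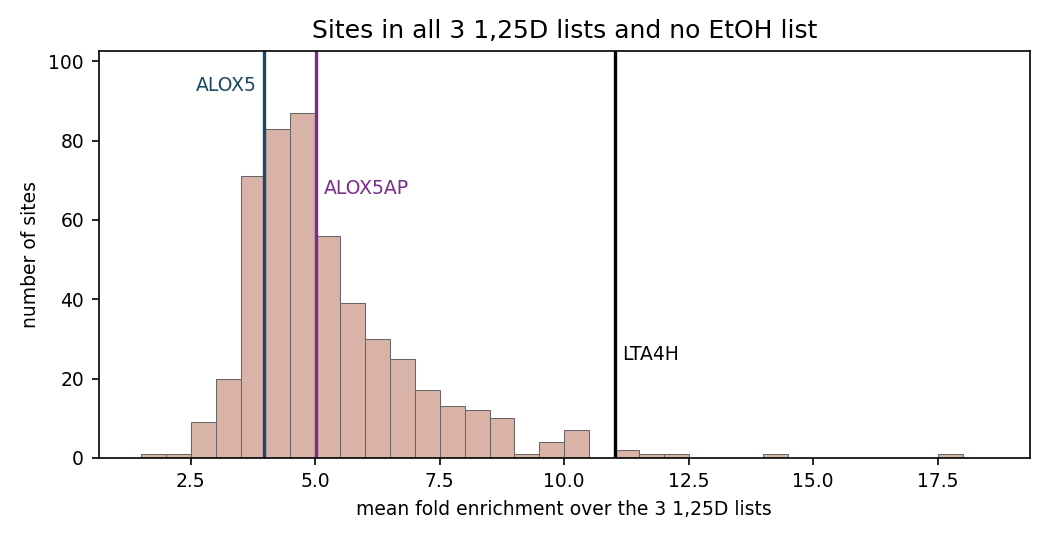
Number of sites (y axis) by mean fold enrichment over the 3 1,25D lists (x axis), for the 492 hormone-only sites of the covered part; lines mark the 3 sites described here. LTA4H stands in the upper tail at 11.0, while ALOX5AP at 5.02 and ALOX5 at 3.97 lie on either side of the median of 4.86.

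Further upstream of LTA4H, 1,25D replicates 2 and 3 each listed a weaker peak, with folds of 3.82 and 3.28. The peaks were 138 bp apart and were therefore counted as 2 sites, at 96514951 to 96515214 and at 96514662 to 96514813. The EtOH peaks of the window were both on the downstream side, 1 in replicate 2 with a fold of 3.78 and 1 in replicate 3 with a fold of 3.01. No list had a peak in the gene body. In the GRCh38 table ELK3 is the next protein-coding gene upstream and HAL the next downstream. Whether the hormone-only site lies between LTA4H and ELK3 was not determined in hg19.

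No list had a peak within 250 bp of any of the 3 gene starts. The sequence before the start is therefore shown for ALOX5AP and LTA4H as stretches where no peak was listed, taken from RefSeq (GRCh38.p14), 250 bases each, 5′ to 3′ along the gene. They lie at chr13:30713235-30713484 on the forward strand and at chr12:96035588-96035837 on the reverse strand, in GRCh38 coordinates that were not converted. The start that this table gives for LTA4H lies inside the outer bounds of the gene, so the distances to the outer end given above are not distances to that start. The gene body, which holds it, had no peak in any list. Capitals mark the VDR half-site AGGTCA, or its form AGTTCA, or its form GGGTCA, or its form GGTTCA, on either strand.
ALOX5AP: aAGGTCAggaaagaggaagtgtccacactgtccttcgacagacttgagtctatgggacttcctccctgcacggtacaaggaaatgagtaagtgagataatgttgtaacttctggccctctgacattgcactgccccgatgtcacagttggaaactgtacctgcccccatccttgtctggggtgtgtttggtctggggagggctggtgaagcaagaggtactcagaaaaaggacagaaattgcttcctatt
LTA4H: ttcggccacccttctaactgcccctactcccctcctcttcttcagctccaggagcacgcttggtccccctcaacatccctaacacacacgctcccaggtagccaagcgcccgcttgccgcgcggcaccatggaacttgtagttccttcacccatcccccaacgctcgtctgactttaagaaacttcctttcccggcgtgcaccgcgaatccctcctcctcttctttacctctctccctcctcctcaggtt
ALOX5AP held 1 half-site, beginning 249 bases before the start, and LTA4H held none. At least 1 of these hexamers was in 33.8% of the 35116 promoters of the table. Neither sequence held a pair as DR3 on either strand, which 0.0655% of the promoters did. The absence of these letters from a window of 250 bases says nothing about binding. The sequences of the 3 hormone-only sites were not analysed here, since no genome of their build was used.

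The number of peaks in the windows was then compared between treatments. The windows together held 6, 7 and 5 peaks in 1,25D replicates 1 to 3, and 1, 7 and 1 peaks in EtOH replicates 1 to 3. The means were 6 ± 1 after 1,25D and 3 ± 3.46 after EtOH (SD, n = 3 each), a difference of 3 peaks that was smaller than the spread between EtOH libraries (two-sided exact permutation p = 0.4). EtOH replicate 2, the longest list, supplied 7 of the 9 EtOH peaks, and without it the difference was 5 (exact permutation p = 0.1, the lower limit for this number of libraries). The lists of both replicates 1 stop at a smaller maximum p: 1,25D replicate 1 had 6 peaks against 1 in EtOH replicate 1, and over the other 4 libraries the difference was 2. The counts were also scaled to 1000 peaks of each list in the covered part. This gave 1.15, 1.92 and 1.13 after 1,25D and 0.190, 0.619 and 0.175 after EtOH. On that scale the treatments did not overlap, which gives an exact permutation p of 0.1, again the smallest possible for 3 against 3. The scale was chosen after the peaks had been seen. In the covered part the EtOH lists held 5251, 11317 and 5722 peaks and the 1,25D lists 5203, 3647 and 4424. The larger divisor lowers the scaled EtOH values in any window. How many other windows separate the treatments on this scale was not determined.

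**Figure D4:**
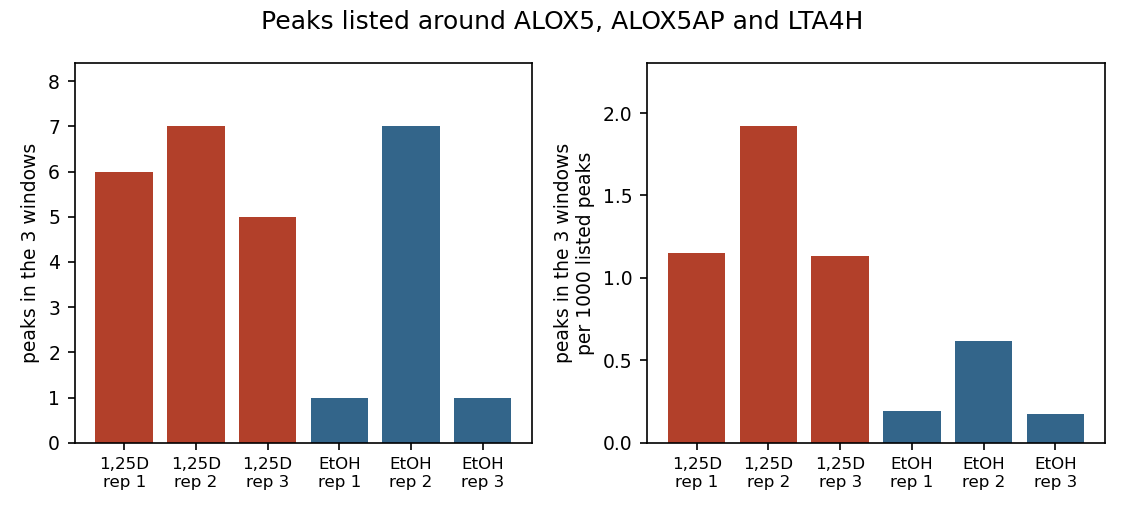
Peaks in the 3 windows together (left, y axis in peaks) and the same number per 1000 peaks listed in the covered part (right), 1 bar per library. EtOH replicate 2 equals the highest 1,25D library at 7 peaks, and is at 0.619 per 1000, below the lowest 1,25D library at 1.13.

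By gene, the same counts were low and overlapped. ALOX5 had 3, 2 and 1 peaks after 1,25D and 0, 3 and 0 after EtOH (exact permutation p = 0.6). ALOX5AP had 2, 3 and 2 after 1,25D and 1, 3 and 0 after EtOH (exact permutation p = 0.5). LTA4H had 1, 2 and 2 after 1,25D and 0, 1 and 1 after EtOH (exact permutation p = 0.3).

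The highest fold over the 3 windows together did not overlap between treatments, although at ALOX5 alone it did. It was 10.8, 10.3 and 11.9 in the 1,25D libraries, all from the LTA4H site, and 3.15, 4.15 and 3.01 in the EtOH libraries. This measure was chosen after the peaks had been seen. How many other windows separate the treatments by their highest fold was not determined. The means were 11.0 ± 0.843 after 1,25D and 3.44 ± 0.624 after EtOH (SD, n = 3 each), which gave 0.1 as the two-sided exact permutation p, again its lower limit. The highest fold was not tested by gene, since no gene had a peak in all 6 lists: EtOH peaks were listed in 1 EtOH library around ALOX5, in 2 around ALOX5AP and in 2 around LTA4H. A fold of 5 or more was reached by 4 of 18 peaks after 1,25D and by 0 of 9 peaks after EtOH. Of these 4 peaks, 3 were the LTA4H site in the 3 1,25D libraries, and 1 was the ALOX5AP site in replicate 1. Over the whole covered part, the share of peaks this strong was 14.5% to 22.5% after 1,25D and 2.57% to 5.39% after EtOH.

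The remaining peaks of the windows were scattered. Of the 20 sites, 16 (80.0%) were in a single list, against 89.8% of all sites, and 7 of these were 1,25D peaks and 9 were EtOH peaks. The single-list folds ranged between 2.63 and 4.81 after 1,25D and between 2.58 and 4.15 after EtOH. Many of these peaks carried a fold and p-value that recur exactly in their own list. The value pair was shared by 100 or more peaks of the same list for 4 of the 18 1,25D peaks and for 8 of the 9 EtOH peaks. At the 3 hormone-only sites, no peak had such a pair, and the most common one, at ALOX5 in 1,25D replicate 1, occurred 49 times. The limit of 100 took no account of list length, and EtOH replicate 2, the longest list, supplied 7 of the 9 EtOH peaks. The same share over all peaks of the lists was not determined. The part of these recurring values in the pattern of calls was not tested.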

How the data were processed

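VDR ChIPmentation was measured in 6 THP-1 libraries. The submitters' processing notes name Bowtie 1.1, MACS2 and the build hg19 (GRCh37). How these tools were set, whether the input served as a control and how duplicates were handled is not stated there. Each library has its own list. PeakEnrich is the authors' fold enrichment (a ratio over background) and pvalue the authors' p-value of each peak, per the file headers. Depth is unknown, so no counting interval is given, and a missing peak means only that it was not listed. Starts may be counted from 0 or 1.

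The highest p was 0.00433 and 0.00431 in replicates 1 of 1,25D and EtOH, and 0.00978 to 0.00997 in the other lists. In 3 lists the last line was incomplete and was left out. The lists are not in numerical order, and the part covered by all 6 is limited to 8 chromosomes, which are 1, 10 to 15 and 16 up to position 50293713. All background shares and ranks rest on it. It holds 5203, 3647 and 4424 peaks for 1,25D and 5251, 11317 and 5722 for EtOH.

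With Python 3.11.15, pandas 2.3.3 and numpy 2.4.6, peaks sharing 1 bp were merged into sites, the highest fold of a list was kept, and library values were compared by two-sided exact permutation over 20 assignments. Merging was tested on simulated lists whose sites lay further apart than the closest neighbours found here, so merging of such neighbours was not tested. Gene bounds came with the choice of genes. Strand came from the RefSeq promoter table for ALOX5AP and LTA4H and from background knowledge for ALOX5, which has no entry there. Named sites are those in 2 or more lists. A single-list peak was to be named where it had the highest fold of its window, which none had. The single-list peaks named in the text were chosen after their values were seen. No other gene of the pathway was analysed here, since no hg19 annotation was used. The genes and lists were chosen with earlier results of these data known. The scaling by the peaks of each list in the covered part was chosen after the peaks had been seen. So were the highest fold over the windows together, the 250 kb windows, the recurring values and the promoter search. No 2 lists had an identical line.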

Additional observations from a re-analysis of the deposited data

How the results depend on the processing

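The count of 3 hormone-only sites was the same with 1 highest p for all lists, with peak centres within 250 bp and with a 50% overlap. The first 2 of these settings could not remove any of the 3 sites. Their peaks had p-values of at most 8.02e-05, below the common limit of 0.00431, and their centres lay within 93 bp. The count was 1 with peaks of fold 5 or more (LTA4H), 1 in gene bodies only (ALOX5), 2 at 50 kb each side and 4 at 200 kb. Without 1 library it was 3 to 4. Within the lists that end at a like highest p it was 6 in replicates 1 only and 4 in replicates 2 and 3 only. Leaving out lists only loosens the rule, so none of the 3 sites could be lost in these settings. In replicates 1 only, 1 list with the hormone suffices, and the 6 sites are simply all of its peaks in the windows. The count of sites in all EtOH lists only was 0 in every setting but replicates 1 only, where 1 list suffices and it was 1. The difference in peaks per library (3) was 1.33 at fold 5 or more and 1 at fold 10 or more or in gene bodies only, 2 to 5 without 1 library, 5 in replicates 1 only and 2 in replicates 2 and 3 only. The difference in highest fold (7.59) was 7.12 to 7.95 without 1 library. Its planned version in gene bodies only gave no value, since 2 EtOH lists had no peak there. With the replicate number as a block, the differences stayed 3 (exact sign-flip p = 0.5) and 7.59 (p = 0.25, the smallest possible). Over windows of 250 kb, the deviations of same-numbered libraries had correlations of 0.0164, -0.0743 and 0.0378. Those of differently numbered libraries ranged from -0.105 to 0.0884. Because these ranges overlap, the check could not tell whether the numbers pair the libraries. Unknown depth limits every statement on missing peaks.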

Other observations

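The 100 kb limit left out 2 repeated 1,25D sites that lay just beyond it. A site on chromosome 13 at 31174727 to 31174973, which was 12.6 kb outside the ALOX5AP window on its upstream side, was in all 3 1,25D lists, with folds of 4.81, 4.12 and 3.90 in replicates 1 to 3, and in no EtOH list. A site on chromosome 10 at 45746213 to 45746458, which was 23.2 kb outside the ALOX5 window on its upstream side, was in 1,25D replicates 2 and 3, with folds of 4.41 and 3.90, and in no EtOH list.

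The nearest site in all 6 lists was 2392 kb from the ALOX5 site, 6252 kb from the ALOX5AP site and 2205 kb from the LTA4H site.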
